A study of Mus musculus with 12 samples.

Results

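The 10 genes described here encode transcription factors that direct the myeloid lineage, the branch of blood formation that gives rise to granulocytes and monocytes. They are Cebpa, Cebpb, Cebpd, Cebpe, Spi1, Gfi1, Irf8, Klf4, Myb and Myc, chosen by name among the 28987 genes of the expression table and read in all 12 libraries. RNA was sequenced from bone marrow of individual C57BL/6 mice, and each of 6 groups holds 2 libraries. The groups were Ly6G+ myeloid cells of CBL/RUNX1 double mutants and of wild type mice, and hematopoietic stem and progenitor cells (HSPC) of CBL/RUNX1 double mutants, CBL mutants, RUNX1 mutants and wild type mice. HSPC were enriched by positive selection for CD117, the receptor encoded by Kit, and the mutant clone was then isolated by flow sorting, as were the mutant Ly6G+ cells. Flow sorting is thus described for mutant cells. If wild type cells were not sorted, genotype and sorting cannot be told apart between mutants and wild type. CBL encodes a ubiquitin ligase that acts on cytokine receptors and kinases, and RUNX1 encodes a DNA-binding factor of blood cell development. The alleles, the way the mutations were introduced, the cell types that carry them and the ages of the mice are not given in the sources used here.

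These factors are used at successive stages of granulocyte formation. PU.1, the product of Spi1, and C/EBP alpha open the myeloid programme in progenitors, Gfi1 and C/EBP epsilon carry cells through the granulocytic stages, and C/EBP beta and C/EBP delta are prominent in maturing and mature cells. IRF8 and KLF4 favour the monocytic and dendritic branch, whereas MYB and MYC sustain the growth and division of immature cells.

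The deposited values are TPM, transcripts counted per fixed total and thus a length-corrected share of each library's transcripts, so levels can be set beside each other between genes. The read depth is unknown, and no interval for counting error can be given. S100a8 and S100a9 together took 7.23% to 34.5% of a library's TPM. Fold changes were therefore computed after scaling the libraries to each other, on log2(scaled TPM + 1), and a call is an adjusted p under 0.05 over all genes tested (limma, Benjamini-Hochberg). The standard error (SE) of a fold change is pooled over all groups of a fit. A pair of groups held libraries unlike each other. The SD over genes of the log2 difference between replicates was 1.02 in double mutant Ly6G+ cells and 0.745 in RUNX1 mutant HSPC, and between 0.307 and 0.395 elsewhere. The first library of each of these pairs had the higher summed TPM of 6 stem and progenitor markers, 589.6 against 121.0 in double mutant Ly6G+ cells and 894.2 against 147.1 in RUNX1 mutant HSPC. Summed TPM of 8 neutrophil markers was 401200 and 395000 in wild type Ly6G+ cells, against 320200 and 345400 in wild type HSPC. S100a8 and S100a9 made up most of these sums and were abundant in the CD117-selected cells. Ngp and Camp were near their Ly6G+ levels there. Ltf had 3823 and 3445 TPM in wild type HSPC, against 7037 and 7306 TPM in wild type Ly6G+ cells. Ly6g, Cxcr2 and Retnlg were lower by more. Cxcr2 had 33.8 and 32.3 TPM in wild type HSPC, against 476.7 and 623.8 TPM in wild type Ly6G+ cells. Retnlg had 496.5 and 529.8 TPM, against 17340 and 16830 TPM. Ly6g had 481.6 and 504.1 TPM in wild type HSPC, against 2017 and 2026 TPM in wild type Ly6G+ cells. Kit, which encodes the receptor used for selection, had 25.6 and 24.5 TPM in wild type HSPC, against 8.93 and 13.3 TPM.

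The promoters of 3 members are shown because 2 of them, Cebpb and Myb, belong to genes called between the wild type populations, and the other, at a downstream start of Irf8, held a motif of the RUNX type. Gfi1, also called between these populations, has windows that are not printed. RefSeq windows on GRCm38.p6 were found for 6 of the 10 members (Cebpa, Cebpb, Gfi1, Irf8, Klf4 and Myb), and the 250 bases before each start were searched on both strands. Capitals mark a motif match. The first is chr2:167688665-167688914 on the plus strand, the second is chr10:21160985-21161234 on the minus strand, and the third is chr8:120738389-120738638 on the plus strand.
Cebpb: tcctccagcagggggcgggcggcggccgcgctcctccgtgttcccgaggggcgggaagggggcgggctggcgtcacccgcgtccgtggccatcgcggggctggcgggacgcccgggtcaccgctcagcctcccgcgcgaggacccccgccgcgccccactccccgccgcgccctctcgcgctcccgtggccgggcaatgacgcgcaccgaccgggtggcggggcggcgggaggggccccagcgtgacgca
Myb: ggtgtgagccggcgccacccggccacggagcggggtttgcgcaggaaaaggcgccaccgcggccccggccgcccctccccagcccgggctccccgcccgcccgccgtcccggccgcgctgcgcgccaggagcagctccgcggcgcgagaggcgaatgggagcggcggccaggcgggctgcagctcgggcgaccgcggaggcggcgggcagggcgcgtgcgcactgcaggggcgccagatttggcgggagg
Irf8: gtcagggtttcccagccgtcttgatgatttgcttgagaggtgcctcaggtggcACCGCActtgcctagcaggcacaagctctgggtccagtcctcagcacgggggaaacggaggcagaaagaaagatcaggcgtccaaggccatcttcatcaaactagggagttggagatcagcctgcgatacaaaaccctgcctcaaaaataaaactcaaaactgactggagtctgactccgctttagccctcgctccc
The Cebpb and Myb windows were 81.6% and 81.2% G and C and held none of the motifs searched. The printed Irf8 window held 1 RUNX-type match, TGCGGT read on the opposite strand, beginning 197 bases before the start. Another Irf8 window, at the upstream start (chr8:120736108-120736357, plus strand), held none of the motifs. No other window of a member held a RUNX-type match. The motif letters were TGTGGT or TGCGGT for RUNX, TTGCNNAA for C/EBP, CACGTG for the E box and GAGGAA for ETS factors. Of 32851 windows of all genes, 18.6% held a RUNX-type match, 9.56% a C/EBP-type match, 6.02% an E box and 23.3% an ETS-type match. Of the other windows, that of Klf4 (chr4:55532476-55532725, minus strand) held an E box 182 bases before the start. The Gfi1 window at chr5:107725806-107726055, also on the minus strand, held a C/EBP-type match 143 bases before its start and overlaps a Gfi1 transcript of the GENCODE M21 annotation. A match describes these letters and does not show binding.

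Among the C/EBP factors, Cebpe was the most abundant in every HSPC library. Cebpa (chr7:35119293-35121928, plus strand), whose product is needed to form granulocyte and monocyte progenitors, had 16.2 and 27.3 TPM in double mutant Ly6G+ cells, against 19.4 and 22.0 TPM in wild type Ly6G+ cells. In HSPC, Cebpa had 65.0 and 52.8 TPM in double mutants, 26.2 and 54.6 in CBL mutants, 34.3 and 34.6 in RUNX1 mutants and 28.0 and 25.1 in wild type. The double mutant and wild type HSPC libraries did not overlap, and of the CBL mutant pair 1 library lay near wild type and the other among the double mutants. Cebpb (chr2:167688915-167690418, plus strand), the C/EBP factor of stress-induced granulocyte production, had 52.0 and 139 TPM in double mutant Ly6G+ cells, against 231 and 123 TPM in wild type Ly6G+ cells. Its HSPC levels were 41.7 and 28.6 TPM in double mutants, 17.2 and 38.0 in CBL mutants, 22.4 and 33.1 in RUNX1 mutants and 22.7 and 21.9 in wild type. Every Ly6G+ library was thus above every HSPC library for Cebpb in deposited TPM, and the HSPC libraries lay between 17.2 and 41.7 TPM with no order by genotype. On the scaled levels the first double mutant Ly6G+ library, at 35.11, was below the second CBL mutant HSPC library, at 36.55.

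Cebpd (chr16:15887286-15891031, plus strand), induced in granulocytic cells and by inflammatory cytokines, had 53.9 and 227 TPM in double mutant Ly6G+ cells, against 193 and 245 TPM in wild type Ly6G+ cells. For Cebpd the HSPC libraries gave 45.5 and 43.5 TPM in double mutants, 67.5 and 89.8 in CBL mutants, 65.3 and 99.2 in RUNX1 mutants and 72.4 and 65.8 in wild type. The double mutants were the lowest of the 8 HSPC libraries. Cebpe (chr14:54710360-54712174, minus strand), the factor of secondary granule genes, had 93.2 and 317 TPM in double mutant Ly6G+ cells, against 199 and 254 TPM in wild type Ly6G+ cells. Double mutant HSPC had 217 and 261 TPM of Cebpe, CBL mutants 374 and 459, RUNX1 mutants 264 and 646, and wild type 428 and 419.6. Again the double mutants held the lowest HSPC values in deposited TPM, with the first RUNX1 mutant library close above them. On the scaled levels that library, at 197.8, lay between the double mutants, at 172.2 and 226.2.

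The make-up of the C/EBP transcripts shifted with the cell population. Cebpe made up 58.8% and 67.6% of the summed TPM of Cebpa, Cebpb, Cebpd and Cebpe in double mutant HSPC, against 77.7% and 78.8% in wild type HSPC. Cebpa made up 17.6% and 13.7% in double mutant HSPC, against 5.08% and 4.72% in wild type HSPC. In wild type Ly6G+ cells the share of Cebpe was 30.9% and 39.5%, that of Cebpd 30.1% and 38.0%, and that of Cebpb 36.0% and 19.1%. Cebpb, Cebpd and Cebpe thus each held 19.1% or more in wild type Ly6G+ cells, whereas Cebpe alone took most in HSPC. The summed C/EBP level was 369 and 386 TPM in double mutant HSPC and 551 and 532 TPM in wild type HSPC.

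**Figure D1:**
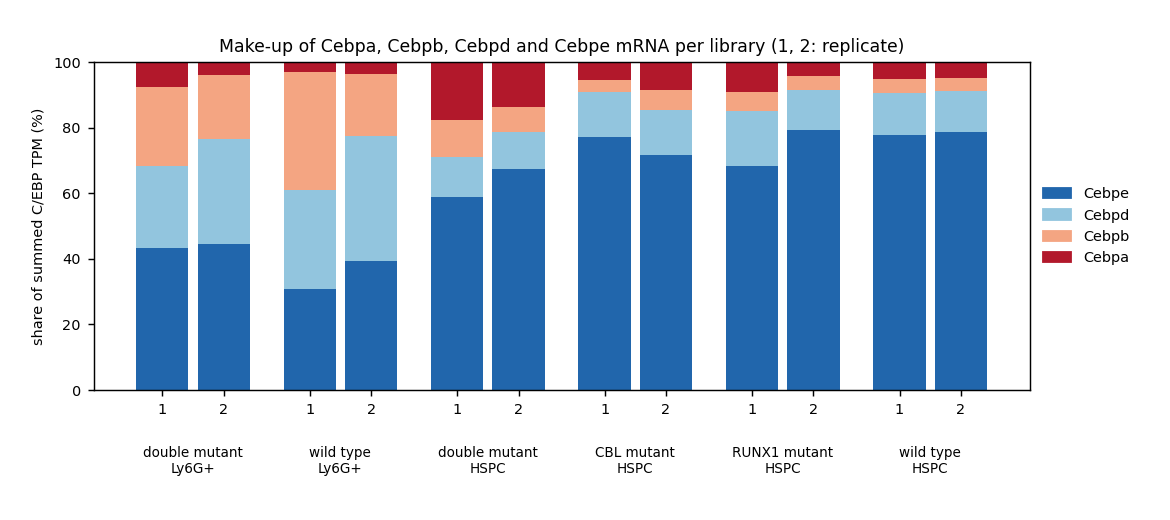
Share of the summed TPM of Cebpa, Cebpb, Cebpd and Cebpe (vertical axis, %) in each of 12 libraries, with 1 bar per library grouped by cell population and genotype. Cebpe takes 58.8% and 67.6% in double mutant HSPC and 77.7% and 78.8% in wild type HSPC, while Cebpb and Cebpd take larger shares in Ly6G+ cells.

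Spi1 (chr2:91082390-91115756, plus strand), which encodes PU.1, was the most even of the 10 genes across HSPC. It had 212 and 526 TPM in double mutant Ly6G+ cells, against 423.5 and 510.3 TPM in wild type Ly6G+ cells. Its HSPC levels were 256 and 253.5 TPM in double mutants, 231 and 269.7 in CBL mutants, 229 and 320.1 in RUNX1 mutants and 260.0 and 248 in wild type. The deposited levels of the double mutant and wild type HSPC were thus side by side, and the Ly6G+ libraries other than the first double mutant were above all HSPC libraries. Gfi1 (chr5:107716657-107726036, minus strand), a zinc-finger repressor required for neutrophil formation, had 6.34 and 16.3 TPM in double mutant Ly6G+ cells, against 11.9 and 13.5 TPM in wild type Ly6G+ cells. HSPC libraries had 77.2 and 101 TPM of Gfi1 in double mutants, 39.2 and 59.3 in CBL mutants, 74.7 and 54.9 in RUNX1 mutants and 51.9 and 47.3 in wild type. No Ly6G+ library reached the level of any HSPC library.

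Irf8 (chr8:120736358-120756694, plus strand), a factor of monocytes and dendritic cells, had its highest level in 1 library. It had 667 and 91.7 TPM in double mutant Ly6G+ cells, against 41.0 and 36.8 TPM in wild type Ly6G+ cells. Among HSPC it had 81.2 and 43.0 TPM in double mutants, 69.7 and 82.2 in CBL mutants, 51.7 and 62.7 in RUNX1 mutants and 41.5 and 35.0 in wild type. All mutant libraries were above the wild type libraries of their own population in deposited TPM. On the scaled levels of Irf8, 2 mutant HSPC libraries were below wild type HSPC, at 49.39 and 48.34. These were the first RUNX1 mutant library, at 38.74, and the second double mutant library, at 37.31. Klf4 (chr4:55527143-55532466, minus strand), a factor of monocyte differentiation, was the least abundant member in each HSPC library, and had 9.67 and 13.5 TPM in double mutant Ly6G+ cells, against 4.94 and 6.77 TPM in wild type Ly6G+ cells. It had 3.71 and 1.47 TPM in double mutant HSPC, 7.45 and 8.17 in CBL mutants, 1.40 and 5.61 in RUNX1 mutants and 3.82 and 3.85 in wild type. At such levels the added 1 shrinks its fold changes.

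Myb and Myc, which sustain immature cells, were lowest in wild type Ly6G+ cells in deposited TPM. On the scaled levels of Myb, the second double mutant Ly6G+ library, at 32.94, lay between the wild type Ly6G+ libraries, at 35.18 and 28.02. Myb (chr10:21124935-21160984, minus strand) had 126 and 31.1 TPM in double mutant Ly6G+ cells, against 27.6 and 21.6 TPM in wild type Ly6G+ cells. HSPC had 197 and 185 TPM of Myb in double mutants, 104 and 121 in CBL mutants, 255 and 98.4 in RUNX1 mutants and 68.4 and 56.5 in wild type. Each mutant HSPC library lay above both wild type HSPC libraries. Myc (chr15:61985391-61990374, plus strand) had 67.4 and 18.6 TPM in double mutant Ly6G+ cells, against 8.54 and 6.15 TPM in wild type Ly6G+ cells. In HSPC it had 175 and 95.9 TPM in double mutants, 101 and 103 in CBL mutants, 194 and 61.5 in RUNX1 mutants and 42.1 and 38.0 in wild type. Myc followed the same arrangement as Myb, with all mutant HSPC libraries above wild type. Exons of Cebpa, Cebpb, Cebpd, Gfi1 and Myb overlap a gene on the opposite strand in the GENCODE M21 annotation of GRCm38 (Gm45091, Tmem189, Spidr, A430072P03Rik and Gm26577, in that order). Whether the libraries kept strand is not given in the sources used here, so part of these 5 levels may belong to the neighbour.

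**Figure D2:**
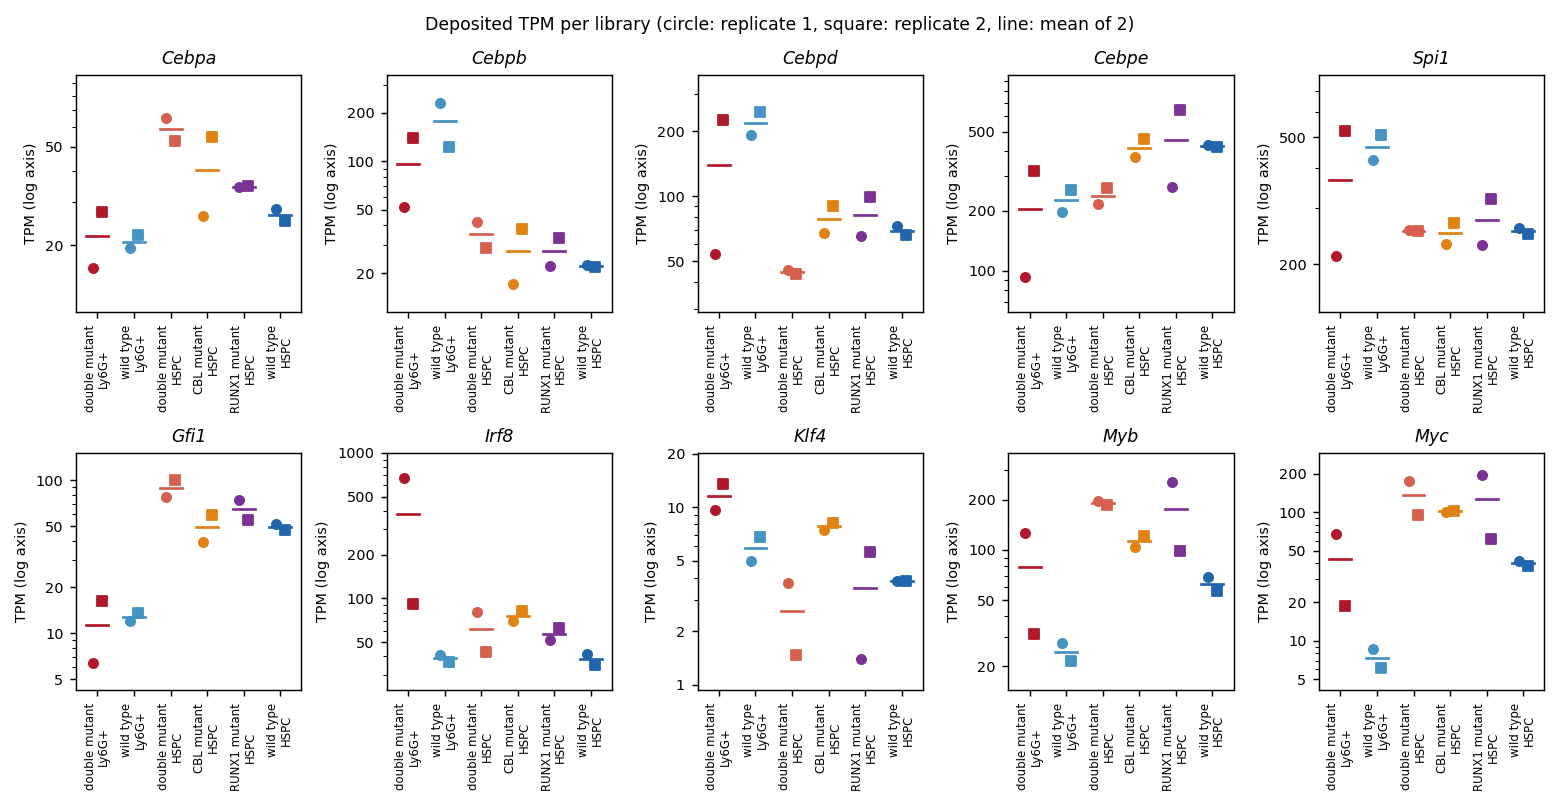
Deposited TPM (vertical axis, log scale) of the 10 transcription factor genes in 12 libraries, with groups along the horizontal axis, a circle for replicate 1, a square for replicate 2 and a line for the mean of the 2. Myb and Myc lie lowest in wild type Ly6G+ cells, and Irf8 reaches 667 TPM in the first double mutant Ly6G+ library.

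In order of level, wild type HSPC had the same sequence of the 10 genes in both libraries: Cebpe, Spi1, Cebpd, Myb, Gfi1, Myc, Irf8, Cebpa, Cebpb and Klf4. Several neighbours in that order lay within each other's spread, among them Cebpd with 69.1 ± 4.70 and Myb with 62.4 ± 8.45 TPM, and Myc with 40.0 ± 2.93 and Irf8 with 38.3 ± 4.60 TPM (SD, n = 2). Cebpe and Spi1 were apart, at 424 ± 6.02 and 254 ± 8.43 TPM (SD, n = 2).

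Wild type Ly6G+ cells were set beside wild type HSPC, which also held abundant neutrophil transcripts. Cebpb rose by 2.89 ± 0.66 (log2, SE) in wild type Ly6G+ cells, with an adjusted p of 0.0102 by limma. Myc fell by 2.34 ± 0.46 (adjusted p = 0.00574), Gfi1 fell by 1.89 ± 0.49 (adjusted p = 0.0161) and Myb fell by 1.31 ± 0.42 (adjusted p = 0.0364, limma). These 4 of 10 members were called, where 39.2% of 13155 genes were, 17.9% of genes being higher and 21.3% lower, so the members' share was near that of all genes. Cebpd at 1.65 ± 0.72 (adjusted p = 0.101) and Spi1 at 0.88 ± 0.55 (adjusted p = 0.236) were not called, nor was Cebpe at -0.90 ± 0.75 (adjusted p = 0.366). Irf8 at 0.03 ± 0.61, Cebpa at -0.34 ± 0.44 and Klf4 at 0.52 ± 0.56 completed the list.

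The call of Myc held with any 1 library left out. Without a wild type HSPC library, Myc was the single member called, and this was also so without the first wild type Ly6G+ library. Without the second wild type Ly6G+ library only Cebpb and Myc were called. Cebpb had adjusted p values of 0.0561 to 0.0699 in the 3 fits in which it was lost. Gfi1 had adjusted p values of 0.0668 to 0.0846 over these 4 fits, in limma. Myb had an adjusted p of 0.0562 to 0.168 in all 8 fits that left out a library of the wild type, CBL mutant or double mutant HSPC or of wild type Ly6G+ cells. Without scaling, Myb lost its call (adjusted p = 0.129) and Cebpd gained one (adjusted p = 0.0486, limma), where 24.3% of all genes were called. Without the filter on low values Myb lost its call too, where 23.1% of genes were called. With both libraries that stood apart left out, 7 members were called against 65% of all genes, the added ones being Cebpd, Spi1 and Cebpe, with the same fold changes. The 6 stem and progenitor markers summed to 46.2 and 48.1 TPM in wild type Ly6G+ cells, against 92.1 and 88.8 TPM in wild type HSPC, and the part of cell mixture in these differences was not tested. In bulk samples, fewer cells of a type and less RNA per cell cannot be told apart.

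Genes tied to these factors were compared between the wild type populations against a background in which 39.2% of all genes were called, 17.9% higher and 21.3% lower. Of 20 MYC target genes, 18 were lower in Ly6G+ cells and none higher, with a median log2 fold change of -1.48 against -0.04 over all genes. Srm, the spermidine synthase gene, fell by 2.77 ± 0.25 (adjusted p = 0.000507, limma), and the ribosome assembly gene Rrs1 fell by 1.82 ± 0.21. Among 11 MYC network partners, 3 were higher and 1 lower, a share near that of all genes: Mxd1 rose by 2.95 ± 0.76, Mxd4 by 1.03 ± 0.21 and Max by 1.30 ± 0.41, while Mxd3 fell by 1.53 ± 0.39. Of 8 primary granule genes, whose transcription belongs to the promyelocyte, 7 were lower, and Elane (neutrophil elastase) fell by 4.04 ± 0.56 and Mpo (myeloperoxidase) fell by 3.59 ± 0.50. Of 11 granule genes linked to C/EBP epsilon, 3 were higher and none lower: Retnlg at 5.06, Mmp8 at 3.89 and Mmp9 at 3.34. Calls in either direction were fewer for their number than over all genes, and calls higher were not. Among C/EBP regulators and partners, 4 of 7 were higher, including Trib1 (2.74 ± 0.51), whose product drives C/EBP alpha degradation, and Ddit3 (1.18 ± 0.22), a dimer partner. Of 9 MYB-linked progenitor genes, 5 were lower, with Mybl2 at -1.06 ± 0.18. Of 12 monocyte genes linked to IRF8 and KLF4, 4 were higher and none lower, among them Cd14 at 2.76 ± 0.47. Taking both directions together, their share called was near that of all genes. Of 9 cytokine receptors, 4 were higher, led by Csf3r, the receptor of granulocyte colony-stimulating factor, at 3.46 ± 0.58. Of 30 other myeloid regulators, 14 were higher and none lower, among them Irf1 at 1.59 ± 0.17 and Junb at 2.98 ± 0.42. Without the libraries that stood apart, the C/EBP epsilon-linked genes called higher numbered 8 and the monocyte genes 7 higher and 1 lower, while 30.9% of all genes were higher.

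The combined effect of both mutations in HSPC had the most calls of the HSPC comparisons: 11.4% of 12421 genes were called, and none of the 10 members. Myb stood at 156 and 160 scaled TPM in double mutant HSPC, against 81.3 and 77.9 in wild type HSPC, a log2 fold change of 0.98 ± 0.27 (95% interval 0.35 to 1.61, adjusted p = 0.0567, limma). Cebpd stood at 36.2 and 37.7 scaled TPM in double mutant HSPC, against 86.1 and 90.7 in wild type HSPC, at -1.24 ± 0.32 (interval -2.00 to -0.47, adjusted p = 0.0531, limma). Both genes missed the threshold narrowly in libraries that did not overlap. Cebpe stood at 172 and 226 scaled TPM in double mutant HSPC, against 509 and 579 in wild type HSPC, at -1.45 ± 0.51 (adjusted p = 0.0967, limma). Myc stood at 139 and 83.2 scaled TPM in double mutant HSPC, against 50.1 and 52.4 in wild type HSPC, at 1.06 ± 0.38 (adjusted p = 0.105, limma). The remaining log2 fold changes were -0.62 for Spi1, -0.98 for Klf4, 0.51 for Cebpa, 0.20 for Gfi1, 0.01 for Cebpb and 0.01 for Irf8. On the scaled levels, the double mutant and wild type libraries did not overlap in 7 of 10 members, while 71.6% of all genes had this property.

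Whether these members were called depended on the libraries and settings of the fit. The spread of the RUNX1 mutant pair enters the pooled error, though neither of its libraries takes part in the comparison. Without either RUNX1 mutant library the fold changes were the same, and 6 members were called, against 36.8% of all genes without the first library and 36.2% without the second. Myb (adjusted p = 0.000721, limma) and Myc (0.0117) were then higher, and Cebpd (0.000744), Cebpe (0.000883), Spi1 (0.00751) and Klf4 (0.0236) lower, these p values being those without the first library. With only the compared groups in the fit, Cebpa (adjusted p = 0.00945, limma) joined them as higher, in a fit that called 40.3% of genes. Without scaling, the median log2 fold change of all genes was 0.56, against 0.03 with it, Spi1 was at 0.00, and the 4 members called were Cebpa, Gfi1, Myb and Myc, all higher. Leaving out any wild type, CBL mutant or double mutant library left no member called.

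Marker sums differed along with the members. The 8 neutrophil markers summed to 86820 and 98770 TPM in double mutant HSPC, against 320200 and 345400 in wild type HSPC. S100a8 and S100a9 made up most of these sums. Retnlg overlapped, with 328.3 and 542.3 TPM in double mutant HSPC, against 496.5 and 529.8 TPM in wild type HSPC, and the other markers were lower in double mutants. The 6 stem and progenitor markers summed to 411.7 and 271.0 TPM in double mutant HSPC, against 92.1 and 88.8 in wild type HSPC, and the 6 monocyte markers to 698.7 and 657.6, against 180 and 169.9. The coagulation factor gene F13a1 made up most of that sum in double mutant HSPC, with 385.2 and 505.6 TPM there, against 77.9 and 70.8 TPM in wild type HSPC. The chemokine receptor gene Ccr2 had 56.8 and 17.4 TPM in double mutant HSPC, against 16.6 and 14.8 TPM in wild type HSPC, and Cx3cr1 had 2.07 and 0.47 TPM, against 3.16 and 2.99 TPM. The second double mutant library was thus near wild type in Ccr2, and both were below wild type in Cx3cr1. All 8 neutrophil markers were at 1 TPM or more in each of these libraries, and no marker of these 3 lists was at 0. The 3 plasma cell markers summed to 5.66 and 4.04 TPM in double mutant HSPC, against 1250 and 1181 in wild type HSPC. Their sums were 26.8 and 37.7 TPM in CBL mutant HSPC and 81.75 and 304.8 in RUNX1 mutant HSPC. The part of cell mixture in the members' differences was not tested. It cannot be told apart from genotype, or from flow sorting where only mutant cells were sorted.

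**Figure D3:**
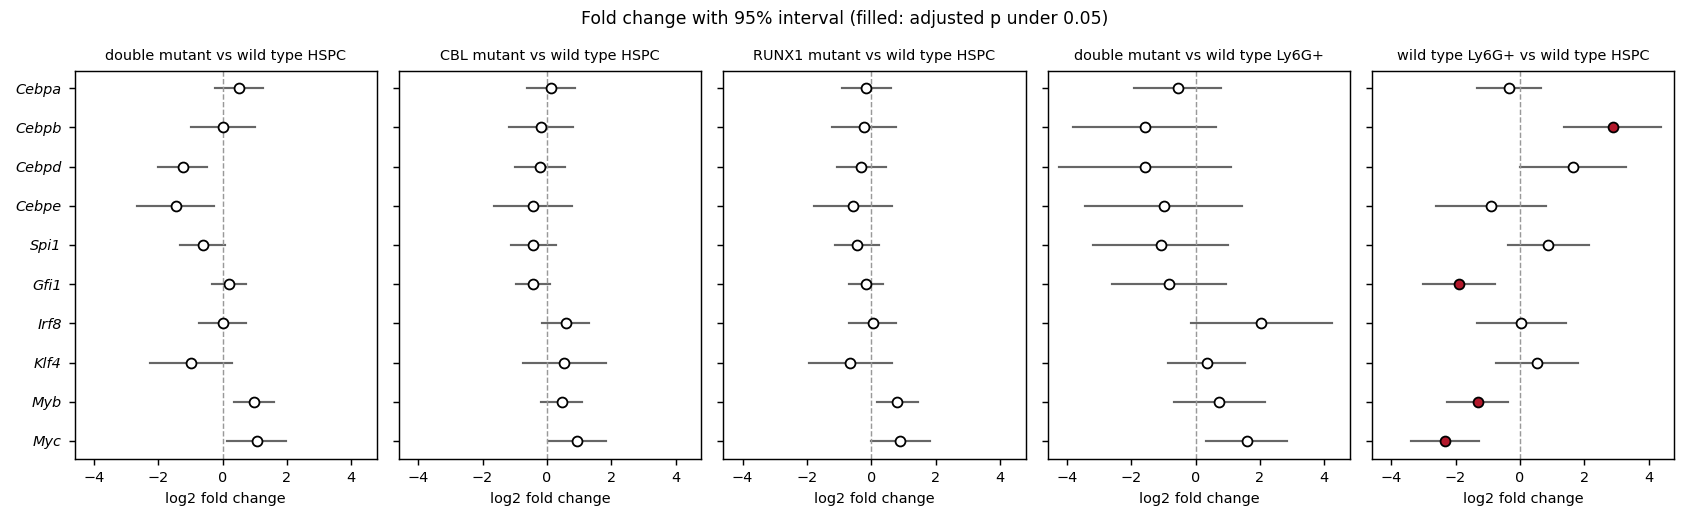
Log2 fold change of the 10 genes (horizontal axis) with its 95% interval, in 5 comparisons shown as panels, with filled points where the adjusted p was under 0.05. Filled points appear in the comparison of wild type Ly6G+ cells with wild type HSPC, for Cebpb, Gfi1, Myb and Myc.

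Genes tied to MYC and MYB were called in double mutant HSPC, although the factors themselves were not. Of 20 MYC target genes, 11 rose and none fell, with a median of 0.73 against 0.03 over all genes, while 4.86% of all genes were higher. Nop56, a nucleolar protein gene, had 333 and 330.4 TPM in double mutant HSPC, against 103 and 94.2 TPM in wild type HSPC, and rose by 1.12 ± 0.17 (adjusted p = 0.0207, limma). Npm1, the nucleophosmin gene, rose by 0.73 ± 0.13 (adjusted p = 0.0251), and Pa2g4 and Ncl by 0.78 and 0.83. Mxd1, whose product competes with MYC for MAX, had 15.0 and 13.3 TPM in double mutant HSPC, against 54.1 and 48.4 TPM in wild type HSPC, and fell by 2.38 ± 0.41 (adjusted p = 0.0257, limma). It was the single call among 11 MYC network partners. Of 9 MYB-linked progenitor genes, Mybl2 (1.14 ± 0.18) and Cd34 (2.16 ± 0.53) rose. Myc and the MYC target genes differed in direction in RUNX1 mutant against wild type HSPC. There Myc was at 0.91 ± 0.38, while 3 of the 20 targets had a positive fold change (median -0.31), with no call in either. Whether the targets depend on the level of Myc was not tested.

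Granule genes of later stages were lower in double mutant HSPC. Of 11 granule genes linked to C/EBP epsilon, 7 fell and none rose, with a median of -2.63, while 6.58% of all genes were lower. Ltf (lactoferrin) had 720.2 and 402 TPM in double mutant HSPC, against 3823 and 3445 TPM in wild type HSPC, and fell by 3.38 ± 0.60 (adjusted p = 0.0261, limma). Ngp fell by 3.52, Lyz2 (lysozyme) by 2.76 and Camp (cathelicidin) by 2.63. Primary granule genes gave 1 call higher, Cst7 (2.44 ± 0.30), and 2 lower, Prss57 (-2.02 ± 0.44) and Serpinb1a (-1.44 ± 0.25), among 8. Cst7 encodes an inhibitor of cathepsins and Serpinb1a an inhibitor of neutrophil serine proteases. Of 12 monocyte genes, F13a1 (1.93 ± 0.31) and Ctss (1.45 ± 0.36) rose and none fell. Among 29 tested other regulators, Jun (1.71 ± 0.25), Irf5 (1.23 ± 0.24) and Egr1 (1.39 ± 0.35) rose, while Ets1 (-2.91 ± 0.37) and Irf4 (-1.74 ± 0.29) fell. Of the cytokine receptors none was called, Il1r1 (adjusted p = 0.0667) and Csf3r (adjusted p = 0.075, limma) having the smallest p values. Ddit3 (-0.69 ± 0.15) was the single call among 6 tested C/EBP regulators. The monocyte genes were called in both directions without the libraries that stood apart, and their share called higher was then near that of all genes. Without the libraries that stood apart, 16 MYC targets were higher and 9 C/EBP epsilon-linked genes lower, where 17.7% and 19.1% of all genes were. In that fit 7 other regulators were higher and 9 lower, 5 MYC network partners were lower, and 3 cytokine receptors were higher and 2 lower.

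In the single mutants no member was called. In CBL mutant HSPC 0 of 10 members passed, where 0.547% of all genes did, and 1 member had an unadjusted p under 0.05 (limma), as had 10.8% of genes. That member was Myc, at 99.6 and 98.9 scaled TPM in CBL mutants, against 50.1 and 52.4 in wild type HSPC, with a log2 fold change of 0.94 ± 0.38 (adjusted p = 0.449, limma). Irf8 had a fold change of 0.58 ± 0.31 (adjusted p = 0.551) and Myb 0.45 ± 0.27 (adjusted p = 0.572, limma). With only the compared groups in the fit, Irf8 and Myc were called higher, where 7.27% of all genes were called. On the scaled levels, CBL mutant and wild type HSPC did not overlap in 7 of 10 members, and this held for 57% of all genes. The 6 stem and progenitor markers summed to 191 and 172 TPM in CBL mutants, against 92.1 and 88.8 TPM in wild type HSPC, and their part in these values was not tested.

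In RUNX1 mutant HSPC 0 of 10 members passed, against 0.0483% of all genes, with 1 member, Myb, at an unadjusted p under 0.05 (limma), as had 16.5% of genes. Its log2 fold change was 0.81 ± 0.27 (adjusted p = 0.251, limma), and that of Myc was 0.91 ± 0.38 (adjusted p = 0.303). These values differed with the RUNX1 mutant library used. The members differed between the RUNX1 mutant libraries by a median of 0.99 on the log2 scale, and Cebpe by 1.77. Without the second library, which leaves the first alone against wild type, 6 members were called (Myb and Myc higher, Cebpd, Cebpe, Spi1 and Klf4 lower) in a fit that called 29.5% of all genes, with the lone library assumed to vary like the other groups. Without the first library no member was called, against 0.484% of all genes. The 4 mast cell and basophil markers summed to 1322 TPM in the first RUNX1 mutant library and to 137 in the second. Cpa3 (1181 against 48.2 TPM) and Ms4a2 (100.3 against 9.95 TPM) were higher in the first library. Mcpt8 (26.8 against 37.1 TPM) and Prss34 (13.4 against 41.9 TPM) were lower in it. The part of these differences in the members' levels was not tested.

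Double mutant HSPC were also set against each single mutant, since these share the HSPC fit. No member was called against CBL mutants, where 3.97% of genes were, or against RUNX1 mutants, where 9.62% were. At an unadjusted p under 0.05 (limma) there were 3 members and 26% of genes against CBL mutants, and 1 member and 29.5% of genes against RUNX1 mutants. Cebpd was the member in both, at -1.02 ± 0.32 (adjusted p = 0.115) against CBL mutants and -0.93 ± 0.32 (adjusted p = 0.111, limma) against RUNX1 mutants. Against CBL mutants, Klf4 had a fold change of -1.52 ± 0.54 (adjusted p = 0.144) and Gfi1 one of 0.63 ± 0.22 (adjusted p = 0.145, limma). Without either RUNX1 mutant library, Cebpd, Cebpe and Klf4 were called lower and Myb higher against CBL mutants, alongside 24.4% of all genes without the first and 24% without the second. Without the first RUNX1 mutant library these 4 and Spi1, which was lower, were called against RUNX1 mutants, alongside 29.9% of all genes. Without the second RUNX1 mutant library 0 members and 20.7% of genes were called against RUNX1 mutants, and with compared groups only 0 members and 0.0084% of genes. The calls against RUNX1 mutants thus depended on which RUNX1 mutant library was kept, and that group is then 1 library, assumed to vary like the other groups. Of 20 MYC target genes, 19 rose against RUNX1 mutants (median 1.08), where 6.16% of all genes were higher. Against CBL mutants 0 were called (limma), where 1.57% of all genes were higher, although all 20 had a positive fold change (median 0.46). Without the first RUNX1 mutant library 12 of the 20 were higher against CBL mutants, where 11% of all genes were. Myc itself was at 0.15 ± 0.38 against RUNX1 mutants and at 0.11 ± 0.38 against CBL mutants (adjusted p = 0.826 and 0.877, limma). Both comparisons share the double mutant libraries, and the difference between them was not tested.

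In Ly6G+ cells the double mutants were compared with wild type, and 0 of 10 members passed, where 0% of 11744 genes did. At an unadjusted p under 0.05 there were 1658 genes (14.1%) and 1 member, Myc (limma). Myc had 45.5 and 19.7 scaled TPM in double mutant Ly6G+ cells, against 10.9 and 8.0 in wild type Ly6G+ cells, a log2 fold change of 1.59 ± 0.46 (adjusted p = 0.333, limma). Irf8 had 450.7 and 97.1 scaled TPM in double mutant Ly6G+ cells, against 52.4 and 47.9 in wild type Ly6G+ cells, at 2.04 ± 0.81 (adjusted p = 0.361, limma). In both genes each double mutant library was above each wild type one, and in 4 of 10 members the scaled levels did not overlap, as in 62.7% of genes. Cebpb at -1.58 ± 0.82 and Cebpd at -1.57 ± 0.98 were the other 2, each lower in double mutants.

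The double mutant Ly6G+ libraries differed from each other by a median of 1.87 on the log2 scale over the members, and Cebpd by 2.69. With the second library alone, Irf8 was the single member called, at 0.94 (adjusted p = 0.0219, limma), where 10.9% of genes were called, and the Cebpd difference was -0.22. With the first library alone, 9 members were called, where 61.1% of genes were: Irf8 (3.15), Myc (2.17) and Myb (1.41) higher, and Cebpd (-2.91), Cebpb (-2.60), Cebpe (-2.18), Spi1 (-2.06), Gfi1 (-1.72) and Cebpa (-1.21) lower. Klf4 was not among them. No gene of the other 9 lists was called with both libraries, whereas with the second alone 8 of 12 monocyte genes and 6 of 8 primary granule genes were higher, where 4.43% of genes were. The lone library is assumed in these fits to vary like the wild type pair. The first library had 214.5 TPM of Flt3 and 195 TPM of Cd34, both genes of immature cells, and the second had 11.8 and 40.9 TPM. In the first library the 8 neutrophil markers summed to 84760 TPM, against 309200 in the second library and 401200 and 395000 in wild type Ly6G+ cells, and the part of this in the members' levels was not tested.

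The double mutation effect was then compared between Ly6G+ cells and HSPC as an interaction over all 12 libraries, in which 0 of 10 members and 0.0684% of genes were called. Irf8 had the smallest p, with a difference of effects of 2.04 ± 0.86 (unadjusted p = 0.0432, adjusted p = 0.496, limma), and it was the single member at an unadjusted p under 0.05, as 9.71% of genes were. Without the first double mutant Ly6G+ library and the first RUNX1 mutant library, Cebpd, Cebpe and Klf4 were called with a more positive effect in Ly6G+ cells and Myb with a more negative one, in a fit that called 7.64% of genes. Without the first double mutant Ly6G+ library alone, 0 members and 0.279% of genes were called. Without the second double mutant Ly6G+ library alone the called members were Cebpa, Cebpb, Gfi1 and Irf8, in a fit that called 16%.

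Across the 12 libraries, some members varied together and others in opposite directions. Pearson correlations of log2 scaled levels, given as a description over 12 libraries that share groups and scaling, were 0.96 for Myb with Myc and 0.96 for Cebpd with Spi1. Cebpb went with Cebpd at 0.84 and Cebpa with Gfi1 at 0.84. The pairs most opposed were Cebpb with Myc at -0.91 and Cebpd with Myb at -0.90. Irf8 was opposed to Gfi1 at -0.75 and was near 0 with Cebpb at 0.03. Irf8 was highest and Gfi1 lowest in the first double mutant Ly6G+ library, at 450.7 and 4.28 scaled TPM. Correlations without that library were not computed. The first double mutant Ly6G+ library was off the common line for Cebpd with Myb and for Spi1 with Myc, with less Myb and Myc than the HSPC libraries of like Cebpd and Spi1.

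**Figure D4:**
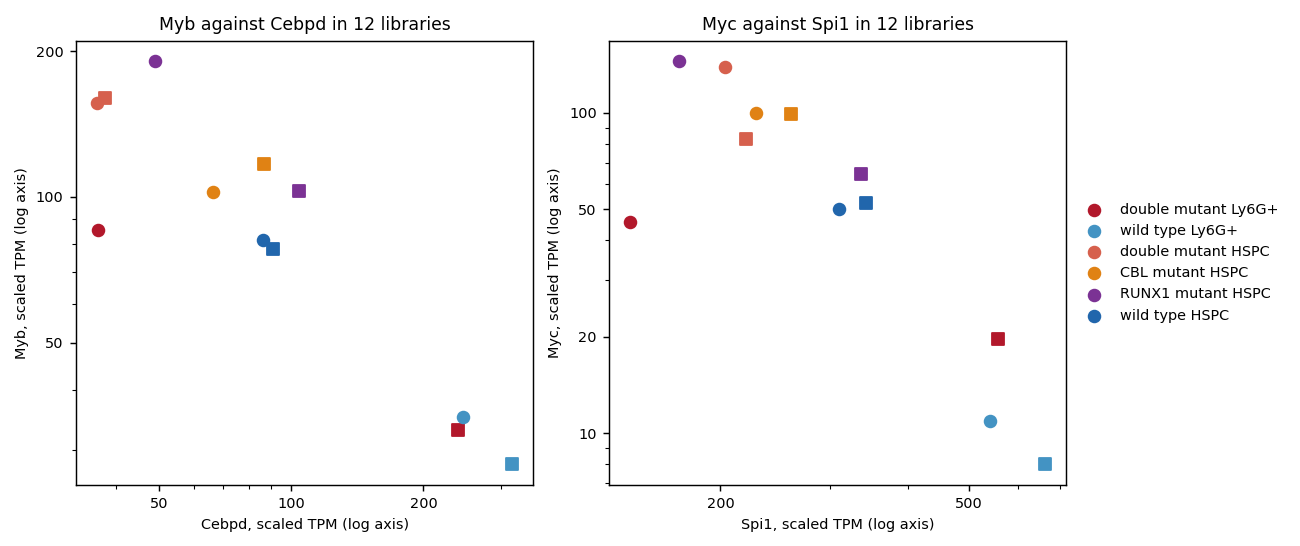
Scaled TPM of Myb against Cebpd and of Myc against Spi1 (log axes) in 12 libraries, with circles for replicate 1 and squares for replicate 2. Wild type Ly6G+ libraries lie at the lower right, double mutant HSPC at the upper left, and the first double mutant Ly6G+ library, at 36.4 scaled TPM of Cebpd and 85.2 of Myb, lies below the HSPC libraries of like Cebpd.

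Among 9166 genes compared over the 12 libraries, the genes nearest to Myb were Smyd3 (0.99), Acp6 (0.98) and Mad2l2 (0.98). Myc had Tspan4, Akt1s1 and Srpk1 nearest, each at 0.98. For Gfi1 they were Stk16 (0.98), Ms4a3 (0.98) and Slc48a1 (0.97), Ms4a3 being a gene of granulocyte and monocyte progenitors. Cebpe had Lta4h (0.98), Gpr160 (0.96) and Ptpn11 (0.96), Lta4h encoding an enzyme of leukotriene synthesis. Cebpd had Ppp2r5a (0.99), Pxn (0.99) and Sec14l1 (0.99), and Spi1 had Numb (0.99), Tank (0.99) and Msrb1 (0.99). Cebpb had Mir22hg (0.97), Chmp3 (0.97) and Cyp4f18 (0.97). The least close matches were those of Cebpa, which had Ncln (0.92), Frrs1 (0.92) and Svip (0.92), of Irf8, which had Rhobtb2 (0.92), Cox6a2 (0.92) and Prr5 (0.92), and of Klf4, which had Ctsh (0.95), Rad9a (0.90) and Ebi3 (0.90).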

How the data were processed

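RNA was sequenced from 12 libraries, 2 in each of 6 groups, and per the labels' protocols marrow came from individual mice. The table deposited by the authors gives TPM per Ensembl gene. Per the submitters' processing notes, CASAVA 1.8, bcl2fastq and kallisto were used with the build mm10; the annotation, the kallisto version and strandedness are not given in the sources used here. Library sums ran from 933370 to 981994 TPM, so the read depth is unknown. A symbol was found for 27458 of 28987 identifiers (94.7%), and gene positions come from GENCODE M21 on GRCm38.

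TPM were scaled between libraries by unweighted trimmed means (trimming 0.3 of log ratios and 0.05 of levels). Genes with at least 1 TPM in at least 2 libraries of a fit were tested with limma 3.58.1 in R 4.3.3 on log2(scaled TPM + 1), a scale that understates changes of low genes, with trended and robust moderation. All 10 members passed this filter in each fit. The HSPC fit had 8 libraries and 4 residual degrees of freedom and the Ly6G+ fit 4 libraries and 2. The interaction, and Ly6G+ cells against HSPC of wild type mice, were fitted on 12 libraries with 6. P-values were adjusted over all genes tested by Benjamini-Hochberg. The planned test was for counts where the table held them; the values are TPM and the fallback for such values was used. The code was tested on simulated data.

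The 10 members are all described. In each other list, up to 4 called genes were eligible to be named per direction, taken by p, and without any call 2 genes were; several are given by count alone. The 3 genes with the highest Pearson correlation to each member are named too, out of genes averaging 2 or more in log2(scaled TPM + 1). Flt3 and Cd34 in Ly6G+ cells were chosen after their values were seen. Members and lists were chosen with earlier results of these data known. Replicate numbers were not shown to pair libraries, and alternatives are given in the closing section.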

Additional observations from a re-analysis of the deposited data

How the results depend on the processing

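Over 1480 values of members under other settings, 1306 kept direction and side of the threshold, 60 changed sign without a call, 96 became called and 17 lost their call. The interaction term of Cebpd, at -0.33, became 1.02 (adjusted p = 0.0487, limma) without both libraries that stood apart, an alternative chosen after seeing the data. Counts of called members changed as follows. Without scaling, 4 were called in double mutant against wild type HSPC. Between the wild type populations Myb lost its call without scaling, where Cebpd gained one, and without filter. In double mutant against wild type HSPC, 1 was called with a minimum of 5 TPM and 1 with a replicate block, Cebpd in both. With compared groups only, 2 were called for CBL mutants, 7 for double mutants against wild type, 4 against CBL mutants and 9 for wild type Ly6G+ cells. Without both libraries that stood apart the counts were 6 for double mutant against wild type HSPC, 4 against CBL mutants, 5 against RUNX1 mutants, 1 for Ly6G+ cells, 7 for wild type Ly6G+ cells against HSPC and 4 for the interaction. Leaving out 1 library gave 0 to 6 for RUNX1 mutants, 0 to 6 for double mutant against wild type HSPC, 0 to 4 against CBL mutants, 0 to 5 against RUNX1 mutants, 0 to 9 in Ly6G+ cells, 1 to 6 for the wild type populations and 0 to 4 for the interaction.

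Counts over all genes moved more. For CBL mutants they were 68, and 40 with an added 0.1, 45 with a minimum of 5 TPM, 45 with the replicate block, 837 with compared groups only, 694 without both libraries and 2 to 694 leaving out 1. For RUNX1 mutants they were 6, and 14 without scaling, 3 with an added 0.1, 17 with an added 5, 14 without filter, 1 with compared groups only, 59 without both and 1 to 3642 leaving out 1. For double mutant against wild type HSPC they were 1421 (42.5% higher), and 4382 without scaling (90.5% higher), 473 without filter, 4682 with compared groups only, 4481 without both and 18 to 4481 leaving out 1. Against CBL mutants they were 493, and 242 without filter, 2176 with compared groups only, 2977 without both and 10 to 2977 leaving out 1. Against RUNX1 mutants they were 1195, and 397 without scaling, 435 without filter, 1 with compared groups only, 3644 without both and 3 to 3644 leaving out 1. In Ly6G+ cells they were 0, and 2 with an added 5, 1 with a minimum of 5 TPM, 7 with the replicate block, 1001 in the fit of all 12 libraries, 1218 without both and 0 to 6905 leaving out 1. For the wild type populations they were 5155, and 3196 without scaling, 8305 with compared groups only, 8252 without both and 2150 to 7068 leaving out 1. For the interaction they were 9, and 15 without scaling, 41 with an added 5, 68 without filter, 3 with a minimum of 5 TPM, 23 without trend and robust moderation, 969 without both and 3 to 2088 leaving out 1.

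Apart from fewer libraries or genes tested, the cause of these shifts was not tested. Same-numbered libraries of 2 groups correlated at -0.01 to 0.46 in their deviations, and with 2 pairs the numbers were not shown to pair them; the block changed no other count of called members. With 2 libraries a group, p-values measure a spread pooled over groups, and that spread depends on the pair of RUNX1 mutant libraries and the pair of double mutant Ly6G+ libraries.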

Other observations

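Mycn, the relative of Myc used mainly in embryonic tissue, had an uneven pattern in HSPC. It had 2.46 and 0.71 TPM in double mutants, 31.9 and 10.2 TPM in CBL mutants, 43.8 and 2.28 TPM in RUNX1 mutants and 0.86 and 0.82 TPM in wild type. It was below Myc in each of these libraries. Batf3, a factor of dendritic cells that works with IRF8, had 15.1 and 6.33 TPM in double mutant Ly6G+ cells, against 2.41 and 1.34 TPM in wild type Ly6G+ cells, and Irf5 had 81.4 and 75.5 TPM, against 23.2 and 28.1 TPM. These genes were picked after their values were seen.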
